A study of Mus musculus with 18 samples.

Results

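The IL-12 family subunits studied here are the products of 5 genes, Il12a, Il12b, Il23a, Il27 and Ebi3, taken by gene name from a table of RNA sequencing read counts for 56748 genes. The cytokines of this family are pairs of an alpha and a beta chain, so both chains have to be made for a pair to form. Release of a chain without its partner was not measured. The beta chain p40, from Il12b, joins the alpha chain p35, from Il12a, to form IL-12, and joins p19, from Il23a, to form IL-23. The beta chain EBI3 joins p28, from Il27, to form IL-27, and can join p35 as IL-35. Macrophages and dendritic cells make IL-12 and IL-23 after sensing microbes; IL-12 drives interferon gamma production by T and natural killer cells, and IL-23 sustains T cells that make IL-17. The question put to the data was which pairs of chains had both transcripts present under each ligand in each genotype. Transcripts were measured, not the secreted proteins or their pairing.

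The RNA came from mouse bone marrow-derived macrophages, grown with supernatant of L929 cells, a fibroblast line that secretes the macrophage growth factor M-CSF. On day 7 the cells received GM (GlcNAc-MurNAc, a disaccharide of bacterial peptidoglycan), MDP or water for 24 h in IMDM without serum. The 6 groups of 3 libraries were TLR4-knockout (KO) cells with GM, with MDP and with water, and wild-type (WT) cells with GM, with MDP and with water. All mice were of the C57BL/6J strain, and all groups, the water controls included, shared the L929 supernatant and the serum-free medium. TLR4 is best known as the sensor of bacterial lipopolysaccharide. MDP is written in the labels as MurNAc-D-Ala-L-Gln, while NOD2 is known to recognise MurNAc-L-Ala-D-isoGln; which of these was given cannot be settled from the files. Doses, the deleted part of Tlr4 and whether replicates were separate animals or cultures are not stated, so the spread behind the p-values may be partly technical.

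Libraries held 15532973 to 21128507 counted reads. Levels are given as CPM, counts scaled to a fixed TMM-adjusted library size, or as CPM per kb of gene length where genes are compared with each other. Tlr4 stood at 36.5 to 52.9 CPM in KO libraries and at 117.5 to 229.5 CPM in WT libraries, so its transcript was lower in every KO library without being at 0. The 9 macrophage markers summed to 24090 to 32490 CPM in all libraries. Most of that sum was Lyz2, which averaged 21150 to 26370 CPM over the groups, so the sum says little about the other markers. Replicates spread unequally: the biological coefficient of variation was 6.12% in KO GM, 6.5% in KO MDP, 5.71% in KO water, 27.6% in WT GM, 8.09% in WT MDP and 35.4% in WT water. WT water replicate 3 stood apart from the other two of its group, with 9 stromal markers summing to 56.7 CPM, against 259.8 and 233.6 CPM in replicates 1 and 2.

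Il12b (chromosome 11, 44290890 to 44304860, plus strand, GRCm39), Il27 (chromosome 7, 126188182 to 126194113, minus strand) and Ebi3 (chromosome 17, 56259640 to 56264022, plus strand) had at least 10 counts in all 18 libraries. Il12a (chromosome 3, 68597977 to 68605880, plus strand) had so many in 12 libraries and Il23a (chromosome 10, 128132008 to 128134621, minus strand) in 4. All 5 passed the filter on low counts, among 15450 genes, but Il23a passed it only through WT GM and KO MDP libraries and Il12a only through WT GM and KO libraries. Their calls against groups where they were low, and the counts of members that include them, are not independent of this filter. Il27 overlaps Apobr on the opposite strand by 103 bases, and Ebi3 overlaps the lncRNA Gm16712 on the opposite strand by 2252 bases. Apobr had 2535 to 3744 counts per KO library and 917 to 3567 per WT library, and Gm16712 had 122 to 256 per KO library and 51 to 116 per WT library. Whether strand was used in counting is not given in the sources used here, so reads of these pairs may not have been told apart.

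Promoter sequence from RefSeq (GRCm38.p6, 250 bases before to 50 after each start) was at hand for 3 of the 5 members, and is shown because Il12b and Il12a make up IL-12 and Ebi3 differed between the genotypes. Capitals mark matches to the motifs searched, on both strands: NF-kB (GGG, 2 bases of any kind, TT, 1 of any kind, CC), IRF (GAAA, 2 of any kind, GAAA), C/EBP (TTGCNNAA, N for any base), AP-1 (TGANTCA) and TATA (TATAA).
Il12b, chr11:44399813-44400112, plus strand: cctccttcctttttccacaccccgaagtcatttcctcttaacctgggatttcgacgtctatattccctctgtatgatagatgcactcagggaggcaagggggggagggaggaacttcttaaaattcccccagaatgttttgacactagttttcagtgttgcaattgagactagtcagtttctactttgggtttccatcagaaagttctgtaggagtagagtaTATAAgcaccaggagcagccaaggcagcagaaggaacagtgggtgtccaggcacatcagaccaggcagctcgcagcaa
Il12a start 1, chr3:68690394-68690693, plus strand: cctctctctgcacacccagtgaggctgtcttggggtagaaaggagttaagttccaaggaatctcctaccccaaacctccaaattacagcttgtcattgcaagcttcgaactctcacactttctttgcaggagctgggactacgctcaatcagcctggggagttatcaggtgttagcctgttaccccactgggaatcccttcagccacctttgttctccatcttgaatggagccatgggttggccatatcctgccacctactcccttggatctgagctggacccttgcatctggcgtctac
Il12a start 2, chr3:68691174-68691473, plus strand: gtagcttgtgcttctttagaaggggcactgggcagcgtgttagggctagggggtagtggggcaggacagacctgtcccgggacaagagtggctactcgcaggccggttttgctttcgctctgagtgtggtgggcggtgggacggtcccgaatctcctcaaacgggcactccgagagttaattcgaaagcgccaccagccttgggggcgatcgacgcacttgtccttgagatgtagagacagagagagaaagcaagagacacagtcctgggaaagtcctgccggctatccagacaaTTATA
Ebi3, chr17:55952373-55952672, plus strand: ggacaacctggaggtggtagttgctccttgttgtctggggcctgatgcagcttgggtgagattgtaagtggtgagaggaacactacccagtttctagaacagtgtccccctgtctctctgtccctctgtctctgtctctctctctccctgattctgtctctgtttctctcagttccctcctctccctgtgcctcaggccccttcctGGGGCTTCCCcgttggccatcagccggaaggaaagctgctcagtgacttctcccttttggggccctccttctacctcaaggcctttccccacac
The Il12b window holds a TATA match 28 to 24 bases before the start, a motif present in 24.9% of 32851 mouse promoter windows of this length. The Ebi3 window holds the NF-kB motif 44 to 35 bases before the start, which 4.79% of the windows hold. The second Il12a window has a TATA match on the minus strand, 46 to 50 bases after the start, and the first has no match to these motifs. The IRF motif occurs in 3.44%, the C/EBP motif in 10.8% and the AP-1 motif in 7.81% of all windows. A match is a description of letters and not of a bound site. Only these exact patterns were searched, so a window without a match may still hold a site that departs from them.

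Il12b, the beta chain shared by IL-12 and IL-23, was the member with the widest range. It stood at 13.8, 17.3 and 19.4 CPM in KO GM, 149, 239.5 and 214.6 CPM in KO MDP and 9.88, 11.6 and 12.5 CPM in KO water. In WT cells it stood at 449, 224.8 and 540.0 CPM with GM, 114, 133 and 124 CPM with MDP and 3.48, 5.54 and 0.553 CPM with water. Every ligand-treated library was above every water library of its genotype. By group mean (SD, n = 3 each), WT GM came first at 404.6 ± 162 CPM, then KO MDP at 201 ± 46.8, WT MDP at 123.5 ± 9.65, KO GM at 16.9 ± 2.85, KO water at 11.3 ± 1.32 and WT water at 3.19 ± 2.51 CPM. The ranges of the neighbours WT GM and KO MDP overlapped, and the other neighbours in this order did not overlap. The share of all genes whose groups separate in this way was not counted, here or for the other members.

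Il12a, the alpha chain p35 that makes p40 into IL-12, was absent from the counts of all 6 WT MDP and WT water libraries and present in the other 12. Its levels were 3.37, 1.53 and 2.60 CPM in KO GM, 5.41, 5.98 and 8.02 CPM in KO MDP and 1.65, 2.16 and 1.74 CPM in KO water. In WT GM they were 4.445, 1.88 and 4.58 CPM. A count of 0 over 3 libraries, taken as a limit of 3 counts and covering counting error only, allows up to 0.0567 CPM in WT MDP and 0.0552 CPM in WT water. KO MDP lay above all other groups without overlap, while WT GM, KO GM and KO water overlapped.

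Il23a, the alpha chain p19 of IL-23, was near the limit of detection. It had 2, 1 and 2 counts in KO GM, 5, 17 and 25 in KO MDP and 1, 0 and 0 in KO water. In WT cells it had 10, 5 and 11 counts with GM, 0, 1 and 3 with MDP and 0, 0 and 1 with water. The group means were 0.876 ± 0.613 CPM in KO MDP and 0.496 ± 0.207 CPM in WT GM (SD, n = 3 each), and these groups overlapped.

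Il27, the alpha chain p28, was low in every group. It stood at 2.20, 1.12 and 1.61 CPM in KO GM, 2.92, 1.98 and 1.80 CPM in KO MDP and 2.66, 2.16 and 1.61 CPM in KO water, and at 3.24, 4.13 and 3.11 CPM in WT GM, 2.90, 2.86 and 1.29 CPM in WT MDP and 1.31, 1.70 and 0.553 CPM in WT water. The 3 WT GM libraries were above the libraries of every other group, and the ranges of the other 5 groups overlapped with one another, except that KO MDP lay just above WT water.

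Ebi3, the beta chain of IL-27, separated by genotype. It stood at 66.5, 69.0 and 66.3 CPM in KO GM, 64.9, 66.9 and 69.6 CPM in KO MDP and 63.2, 66.1 and 66.6 CPM in KO water. In WT cells it stood at 50.15, 46.3 and 48.5 CPM with GM, 33.55, 27.5 and 31.8 CPM with MDP and 27.0, 33.3 and 31.0 CPM with water. The lowest KO library was above the highest WT library, WT GM lay between, and the KO groups overlapped with one another, as did WT MDP and WT water.

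**Figure D1:**
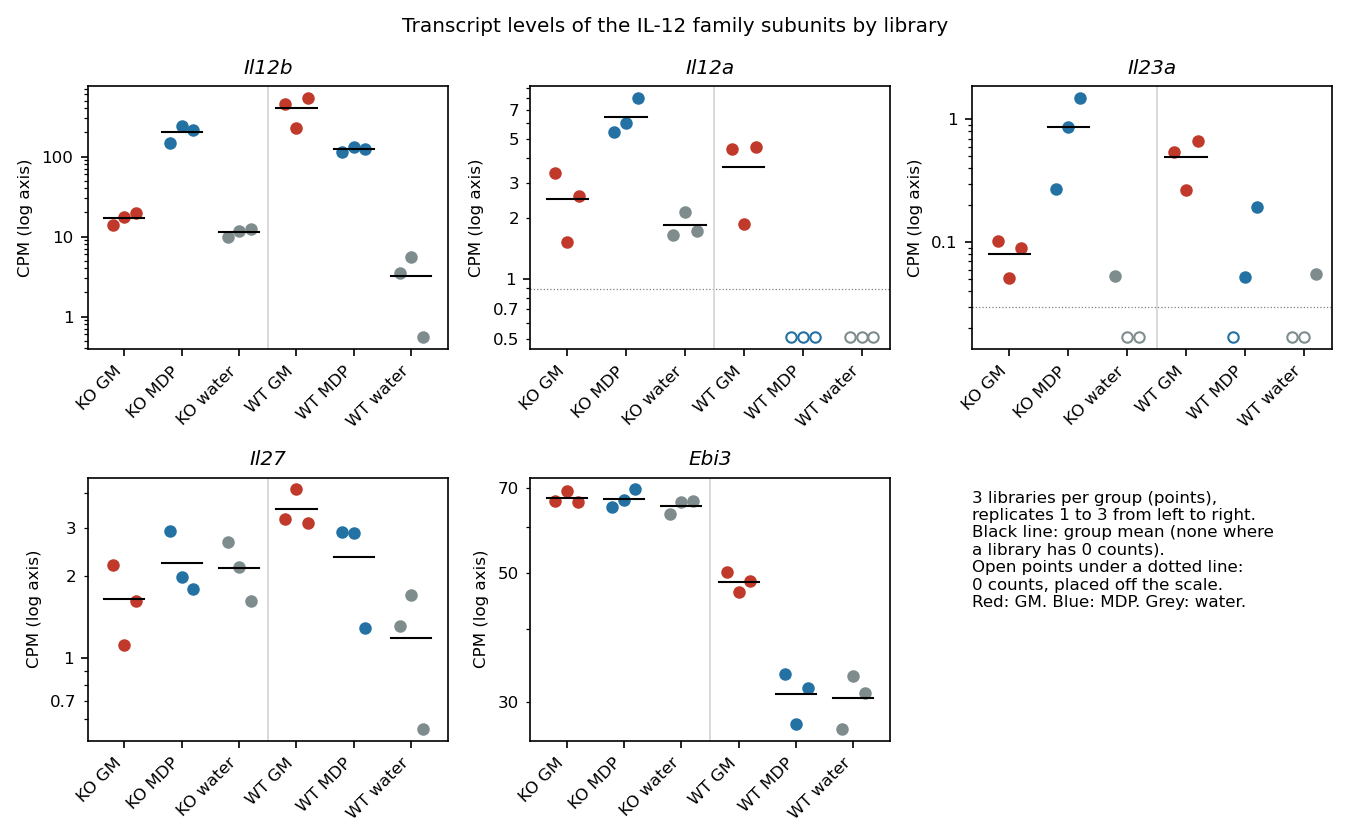
Level of each subunit transcript in CPM (log axes) in every library, with 3 libraries per group, KO groups left of WT groups and replicates 1 to 3 from left to right. Black lines are group means and open points below a dotted line are libraries with 0 counts; Il12b spans 0.553 to 540.0 CPM, whereas every Ebi3 value lies between 27.0 and 69.6 CPM.

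Set against each other per kb of gene length, the alpha chain was the scarcer one in every library. For IL-12, Il12b exceeded Il12a by 3.69 to 10.2 times in KO GM, 24.1 to 36.1 times in KO MDP, 4.83 to 6.47 times in KO water and 91.1 to 107.8 times in WT GM, all in CPM per kb. In WT MDP and WT water, where Il12a had no counts, the mean Il12b level per kb was at least 1963 and at least 52.1 times what Il12a could be. Thus transcripts of both IL-12 chains were counted in WT GM and in all KO groups, and in WT MDP the p40 transcript was counted without the p35 transcript. The scarcer chain, Il12a, stood at 0.862 to 1.90 CPM per kb in KO GM, 3.05 to 4.52 in KO MDP, 0.929 to 1.22 in KO water and 1.06 to 2.58 in WT GM, so the scarcer chain was highest in KO MDP.

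For IL-23, Il12b per kb exceeded Il23a by 154 to 388 times in KO GM, 164 to 629 times in KO MDP and 919 to 957 times in WT GM. Il23a stood at 0.0227 to 0.0455 CPM per kb in KO GM, at 0.120 to 0.666 in KO MDP and at 0.1195 to 0.299 in WT GM. In KO water, WT MDP and WT water at least 1 library had no Il23a count, so no ratio per library was formed.

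For IL-27, Ebi3 per kb exceeded Il27 by 26.8 to 54.5 times in KO GM, 19.6 to 34.3 times in KO MDP, 21.0 to 36.5 times in KO water, 9.91 to 13.8 times in WT GM, 8.49 to 21.7 times in WT MDP and 17.3 to 49.6 times in WT water. Both IL-27 chains were counted in all 18 libraries. Il27 averaged 1.61 ± 0.528 CPM per kb in KO GM, 2.19 ± 0.593 in KO MDP, 2.10 ± 0.511 in KO water, 3.42 ± 0.546 in WT GM, 2.31 ± 0.899 in WT MDP and 1.17 ± 0.573 in WT water (SD, n = 3 each). For IL-35, Ebi3 per kb exceeded Il12a by 30.3 to 69.5 times in KO GM, 13.3 to 18.4 times in KO MDP, 47.0 to 58.9 times in KO water and 16.3 to 37.8 times in WT GM. No test was run on these ratios; an exact permutation test of 3 against 3 libraries cannot go below p = 0.1.

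**Figure D2:**
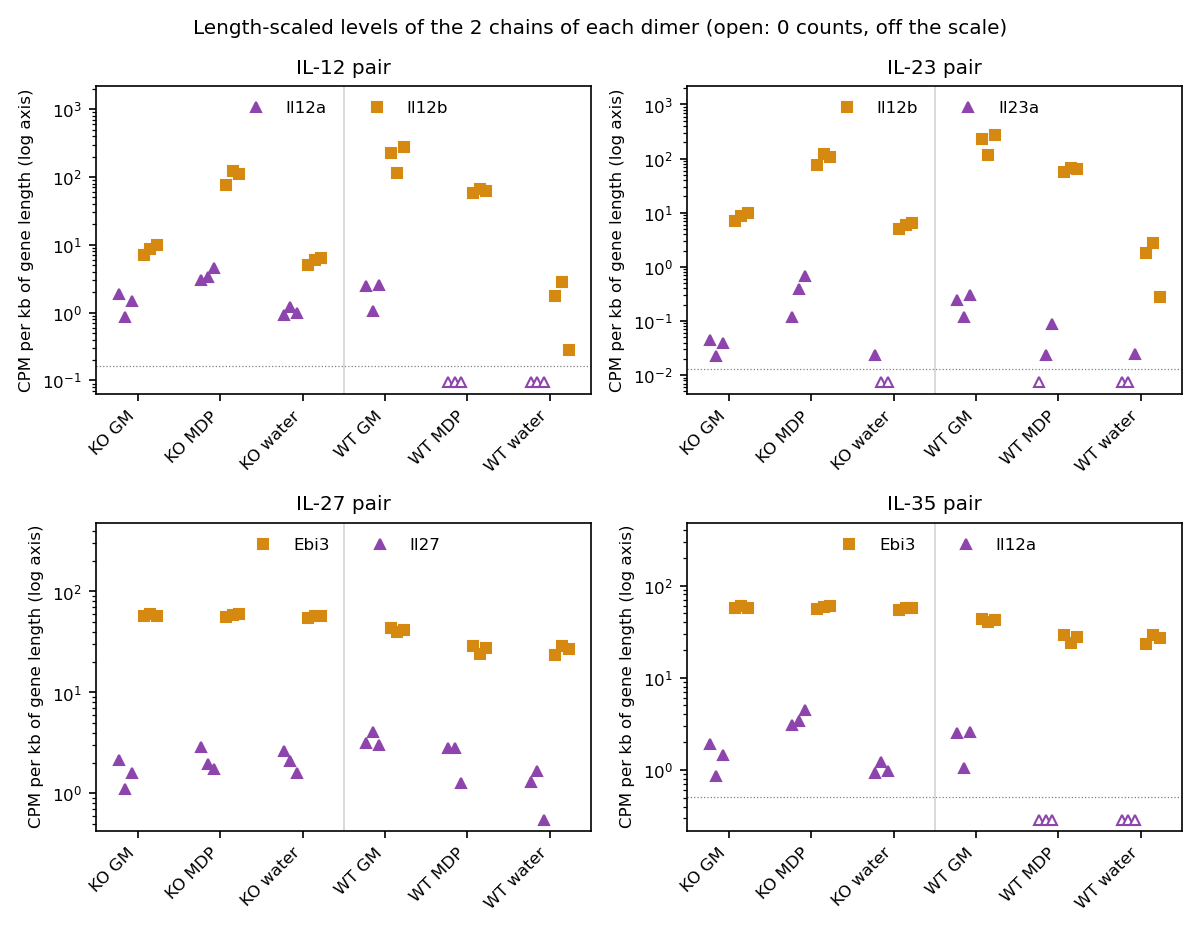
Levels of the chains of each pair in CPM per kb of gene length (log axes), with squares for the beta chain and triangles for the alpha chain in each of the 18 libraries, KO groups left of WT groups. Open triangles are 0 counts, drawn off the scale; the alpha chain lies under the beta chain in every library, and Il12a is at 0 in all WT MDP and WT water libraries.

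GM against water asks which subunits the disaccharide moved. In WT cells Il12b rose by 6.99 (SE 0.83) on the log2 scale (edgeR quasi-likelihood test, adjusted p = 0.0292), the 1 of 5 members called, where 0.608% of all 15450 genes tested were called, all of them higher. Il12a stood at least 65.8-fold above WT water, which had no counts, with an adjusted p of 0.0534 that missed the threshold of 0.05 and ran between 1.99e-08 and 0.309 over the alternatives. The Il23a counts summed to 26 in WT GM and 1 in WT water, a ratio of 26.5 (95% counting interval 4.36 to 1088, adjusted p = 0.232). Il27 was at 1.55 (SE 0.45, adjusted p = 0.421) and Ebi3 at 0.67 (SE 0.12, adjusted p = 0.114), and neither was called. Without WT water replicate 3 the change of Il12b was 6.49 (adjusted p = 0.00869). The call was lost when any library but WT water replicate 3 was left out (log2 6.73 to 7.63, the highest without WT water replicate 2, adjusted p 0.0585 to 0.179), without the filter on low counts (adjusted p = 0.113) and with a replicate block (adjusted p = 0.0577). The fit without WT GM replicate 1 called no gene at all, so every edgeR call of GM against water in WT cells given below depends on that library.

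In KO cells with GM, Il12b was again the only 1 of 5 members called, against 7.84% of all genes (3.61% higher), and its rise of 0.58 (SE 0.12, adjusted p = 0.00126) took it to 16.9 CPM, against 11.3 CPM in KO water. Il12a was at 0.43 (SE 0.28, adjusted p = 0.431), with an interval of -0.13 to 0.99. Il23a summed to 5 counts in KO GM and 1 in KO water, a ratio of 4.61 with a counting interval of 0.515 to 217.9. Il27 was at -0.39 (interval -0.98 to 0.20) and Ebi3 at 0.04 (interval -0.06 to 0.15). The Il12b call was not made in the fit of all 18 libraries (adjusted p = 1.0) or in limma-voom with group-wise spreads (adjusted p = 0.362).

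The responses to GM were then tested against each other. The KO response minus the WT response was -6.42 (SE 0.74, adjusted p = 0.00160) for Il12b and -0.62 (SE 0.12, adjusted p = 0.0346) for Ebi3, and Il12a was called lower as well (adjusted p = 0.00580), so 3 of 5 members were called, against 0.939% of all genes (0.926% lower). Among these 3, Il12a had passed the filter on low counts only through WT GM and KO libraries. For Il27 the difference of responses was -1.94 (SE 0.55, adjusted p = 0.216), and for Il23a the adjusted p was 0.931. With limma-voom and group-wise spreads none of the 3 was called (adjusted p 0.358 for Il12a, 0.0714 for Il12b and 0.115 for Ebi3). Without WT water replicate 2 the Il12b difference was -7.04 (adjusted p = 0.00164). The Ebi3 call was lost in 9 of 12 fits with 1 library left out, without the filter and with a replicate block (adjusted p 0.0520 to 0.121 in these).

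MDP against water gave a rise of Il12b in both genotypes. In WT cells Il12b rose by 5.28 (SE 0.64, adjusted p = 0.00709) and was the 1 member of 5 called, against 8.34% of all genes (4.61% higher). Il12a had no counts in either group, Il23a summed to 4 counts with MDP and 1 with water (ratio 4.11, counting interval 0.406 to 202.1), Il27 was at 0.99 (SE 0.50, adjusted p = 0.268) and Ebi3 at 0.02 (interval -0.29 to 0.33). Without WT water replicate 3 the change of Il12b was 4.80 (adjusted p = 3.75e-11), without WT water replicate 2 it was 5.91 (adjusted p = 0.0181), and without WT MDP replicate 2 or 3 its adjusted p was 0.0533 or 0.0514.

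In KO cells 3 of 5 members rose with MDP, against 9.16% of all genes called higher and 19.2% called in either direction. Among these 3, Il23a had passed the filter on low counts only through WT GM and KO MDP libraries. Il12b rose by 4.15 (SE 0.27, adjusted p = 0.000799) and Il12a by 1.79 (SE 0.21, adjusted p = 1.45e-08). Il23a summed to 47 counts with MDP and 1 with water, a ratio of 48.5 (counting interval 8.29 to 1956, adjusted p = 7.57e-05). Il27 was at 0.05 (interval -0.50 to 0.61) and Ebi3 at 0.04 (interval -0.08 to 0.16). In each alternative run these 3 calls were made again, though KO MDP replicate 3 alone gave 25 of the 47 Il23a counts. For the difference of MDP responses between KO and WT, edgeR called 0 of 5 members, none with an unadjusted p below 0.05, where 7.97% of all genes were called; DESeq2 and limma-voom also called 0. That difference was -1.13 (SE 0.59) for Il12b (adjusted p = 0.265) and -0.94 (interval -2.22 to 0.34) for Il27, and it has no meaning for Il12a, which had no counts in either WT group. The GM and MDP comparisons of a genotype share their water libraries.

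**Figure D3:**
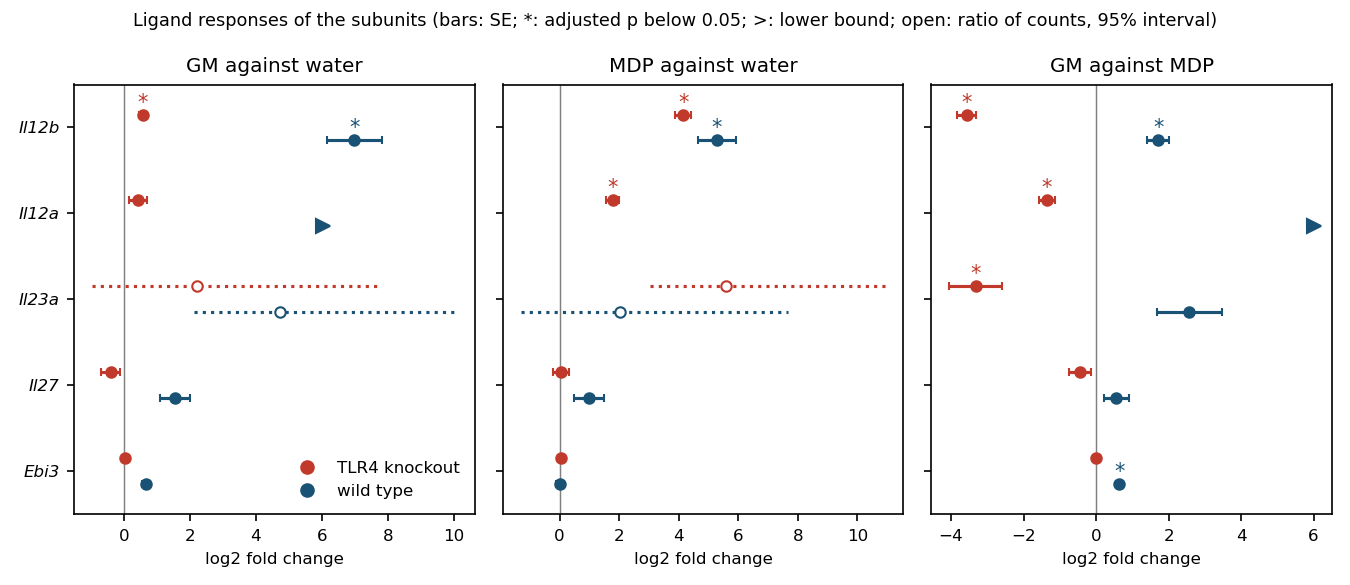
Log2 fold changes of the subunits for each ligand against water (left and middle) and for GM against MDP (right) in KO (red) and WT (blue) cells, with bars for the SE. Asterisks mark an adjusted p below 0.05 of fitted values, the arrowhead a lower bound against 0 counts, and open points with dotted lines ratios of few counts with 95% intervals (no point where both groups had 0); for Il12b, GM against MDP is at -3.57 in KO cells and at 1.71 in WT cells.

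GM set directly against MDP was called in opposite directions in the genotypes for Il12b and Il12a, and not for the other 3 members. In KO cells Il12b was lower with GM by a log2 change of -3.57 (SE 0.27, adjusted p = 0.00182), Il12a by -1.36 (SE 0.22, adjusted p = 1.76e-05) and Il23a by -3.32 (SE 0.73, adjusted p = 0.000637), 3 of 5 members against 16.4% of all genes (8.31% lower). Il23a counts among these 3 though it passed the filter on low counts only through WT GM and KO MDP libraries. Without KO MDP replicate 3 the Il23a change was -2.72 (adjusted p = 0.0242). Fitted over all 18 libraries, Il12b alone kept this call (Il12a adjusted p = 0.113, Il23a 0.0553). In WT cells Il12b was higher with GM by 1.71 (SE 0.30, adjusted p = 0.0182), Ebi3 by 0.64 (SE 0.10, adjusted p = 0.0129) and Il12a by at least 64.1-fold (adjusted p = 0.00785), 3 of 5 members against 9.99% of all genes (5.59% higher). Among these 3, Il12a had passed that filter only through WT GM and KO libraries. Il23a was at 2.58 in WT cells (SE 0.91, adjusted p = 0.109). The WT calls of Il12b and Ebi3 were each lost without WT GM replicate 1 or without any of the 3 WT MDP libraries (adjusted p 0.0523 to 0.0893), and that of Il12b also without the filter (adjusted p = 0.0916).

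The difference between the genotypes in GM against MDP, a comparison added after these orders had been seen, was called for 4 of 5 members, against 15.1% of all genes (8.04% lower). It was -5.29 (SE 0.43, adjusted p = 4.29e-05) for Il12b, -5.90 (SE 1.21, adjusted p = 0.00624) for Il23a and -0.64 (SE 0.11, adjusted p = 0.00185) for Ebi3. Il12a was called in the same direction (adjusted p = 8.04e-05), and Il27 was at -1.001 (adjusted p = 0.177). Il12a and Il23a count among the 4 though they passed the filter on low counts only through groups where they were high. These 4 calls were made in every alternative run, while the Il23a value moved to -5.30 without KO MDP replicate 3 and to -7.225 without WT MDP replicate 3.

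KO against WT at the same treatment compares the genotypes directly. With water, Il12a was at least 33.5-fold higher in KO cells (adjusted p = 0.00662) and Ebi3 higher by 1.10 (SE 0.11, adjusted p = 0.00273), 2 of 5 members against 14.6% of all genes (6.32% higher). Of these 2, Il12a had passed the filter on low counts only through WT GM and KO libraries. Il12b was at 1.83 (SE 0.65, adjusted p = 0.110), and without WT water replicate 3, its lowest library, at 1.34 with an adjusted p of 1.12e-07; over the alternatives its adjusted p ran up to 0.348. Without KO water replicate 2 or 3 the Il12a adjusted p was 0.0546 or 0.0512, and limma-voom and the replicate block gave 0.0611 and 0.0562.

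With GM, Il12b was lower in KO cells by a log2 change of -4.58 (SE 0.35, adjusted p = 0.000413), Il23a by -2.51 (SE 0.65, adjusted p = 0.0256) and Il27 by -1.09 (SE 0.31, adjusted p = 0.0344), while Ebi3 was higher by 0.48 (SE 0.07, adjusted p = 0.00389). These were 4 of 5 members, against 30.7% of all genes (18% lower, 12.7% higher), and Il12a was at -0.54 (SE 0.42, adjusted p = 0.364). Among the 4, Il23a had passed the filter on low counts only through WT GM and KO MDP libraries. The call of Il23a was lost without any library but WT GM replicate 2 (adjusted p 0.0530 to 0.0904), without the filter (0.0632), in limma-voom (0.0878) and with a replicate block (0.0509). That of Il27 was lost without KO GM replicate 2 or 3 or WT GM replicate 1 (0.0777 to 0.115) and with a replicate block (0.0761).

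With MDP, Il12a was at least 114.1-fold higher in KO cells (adjusted p = 2.04e-13), Il23a higher by 3.39 (SE 0.82, adjusted p = 0.00135) and Ebi3 by 1.12 (SE 0.08, adjusted p = 3.87e-13), 3 of 5 members where 44% of all genes were called (20.5% higher). Among these 3, Il12a and Il23a had passed the filter on low counts only through groups where they were high. Il12b was at 0.70 (SE 0.21, adjusted p = 0.0582), and without KO MDP replicate 1 at 0.88 with an adjusted p of 4.06e-11; over the alternatives its adjusted p ran up to 0.1995. The change of Il23a was 2.80 without KO MDP replicate 3 and 4.71 without WT MDP replicate 3 (adjusted p 0.0235 and 0.000340). Il27 was at -0.09 (SE 0.28, adjusted p = 0.832).

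Markers of other cell types moved with these groups. The 8 dendritic cell markers, a cell type that makes IL-12, summed to 166.8 to 208.8 CPM in KO GM, 320.2 to 423.1 in KO MDP, 133.7 to 156.7 in KO water, 538.3 to 666.7 in WT GM, 767.7 to 848.9 in WT MDP and 91.5 to 236.1 in WT water. Most of that sum was Ccr7, the chemokine receptor of migrating dendritic cells, which averaged 163.6 CPM in KO GM, 354 in KO MDP, 125 in KO water, 513 in WT GM, 713 in WT MDP and 107 in WT water, while Siglech had no counts in KO MDP, WT GM and WT MDP, Xcr1 none in KO GM and Cd209a none in KO MDP. In the ligand comparisons 0 of 6 tested dendritic markers rose with GM in KO cells in the edgeR fit (2 of them, Ccr7 and Zbtb46, had an unadjusted p below 0.05) and 3 rose and 1 fell with MDP, where 7.84% and 19.2% of all genes were called. In WT cells 1 rose with GM, and 2 rose and 1 fell with MDP, where 0.608% and 8.34% of all genes were called. The 9 neutrophil markers summed to 79.6 to 285.7 CPM over the KO libraries and to 8.32 to 80.1 over the WT libraries. The 9 stromal markers summed to 4.61 to 10.95 CPM over the KO libraries and to 15.7 to 259.8 over the WT libraries. The 7 lymphocyte markers were low throughout but separated by genotype, with sums of 2.69 to 4.86 CPM over the KO libraries and 0.365 to 1.33 over the WT libraries. In KO against WT cells 3 of 4 tested lymphocyte markers were called higher with GM, 3 with MDP and 2 with water, where 30.7%, 44% and 14.6% of all genes were called in either direction. Against the same shares, 5 of 6 tested dendritic markers were called lower with GM, 6 with MDP and 2 with water. Of 8 tested stromal markers 8 were lower with GM, 6 with MDP and 8 with water. Of 7 tested neutrophil markers 5 were higher with GM, 2 with water, and 5 higher and 1 lower with MDP. Of 9 macrophage markers 2 were higher at each treatment, and 1 was lower with GM, 6 with MDP and 2 with water. The part of any of these cell types in the subunit results was not tested, and in bulk RNA fewer cells of a type and less RNA per cell cannot be told apart.

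Among the receptor chains, Il23r, which binds p19 and gives IL-23 its own receptor, moved most. It stood at 1.74, 1.83 and 1.70 CPM in KO GM, 4.60, 4.51 and 3.95 in KO MDP, 1.59, 1.01 and 2.05 in KO water, 5.65, 4.19 and 4.27 in WT GM, 2.57, 3.385 and 1.94 in WT MDP and 0.303, 0.304 and 0.0553 in WT water. It rose in KO cells with MDP (log2 1.51, SE 0.25, adjusted p = 1.04e-05) and in WT cells with GM (4.37, SE 0.54, adjusted p = 0.0300) and MDP (3.54, SE 0.55, adjusted p = 0.0142), and was at 0.20 in KO cells with GM (adjusted p = 0.803). Its counts summed to 12 over the 3 WT water libraries, so both WT changes rest on few counts. The WT GM call was lost without WT GM replicate 1, where no gene was called. Il6st, the gp130 chain that IL-27 shares with IL-6, was lower in KO cells than in WT cells by -1.18 with GM, -1.52 with MDP and -1.21 with water (adjusted p 0.000625, 3.41e-19 and 0.00208). Il12rb2, the signalling chain of the IL-12 receptor, fell in KO cells with GM (-0.36, adjusted p = 0.00502) and with MDP (-0.77, adjusted p = 3.98e-08). Il12rb1, shared by the IL-12 and IL-23 receptors, and Il27ra were called in none of the comparisons with water. Per kb Il6st averaged 7.20 to 24.6 CPM per kb over the groups, Il12rb2 4.02 to 11.5, Il12rb1 1.11 to 2.99, Il23r 0.0888 to 1.89 and Il27ra 0.595 to 1.28.

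Of 15 receptor and signalling genes listed, 13 were tested, where 7.84% of all genes were called with GM and 19.2% with MDP in KO cells, and 0.608% with GM and 8.34% with MDP in WT cells. In KO cells 2 rose and 1 fell with GM (median log2 change 0.03, all genes -0.00343) and 7 rose and 2 fell with MDP (median 0.37, all genes -0.00524), and in WT cells 1 rose with GM (median 0.61, all genes -0.0347) and 3 rose and 2 fell with MDP (median 0.22, all genes -0.0431). Stat4, which carries the IL-12 signal, rose with MDP by 1.22 in KO cells (adjusted p = 0.000252) and by 3.20 in WT cells (adjusted p = 0.00794). Socs3, a brake on gp130 signalling, rose with MDP by 0.91 in KO cells (adjusted p = 5.08e-15), to 140.8 ± 8.12 CPM against 74.9 ± 6.66 CPM with water, and in WT cells it fell by 2.65 on the log2 scale (adjusted p = 0.000772), to 11.2 ± 0.424 CPM against 70.3 ± 7.40 CPM (SD, n = 3 each). That difference of MDP responses was 3.56 (SE 0.14, adjusted p = 1.87e-07), and Socs1 went the same way (2.25, SE 0.16, adjusted p = 3.36e-05).

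All 24 listed regulators of subunit transcription or mRNA stability were tested, against the same shares of all genes called. In KO cells 4 rose and 2 fell with GM (median log2 change 0.02) and 11 rose and 3 fell with MDP (median 0.24), and in WT cells 4 rose with GM (median 0.38) and 7 rose and 1 fell with MDP (median 0.31). The 4 that rose with GM in WT cells were Irf7 (3.46), an interferon response factor; Nfkbiz (2.56), the nuclear IkB zeta; Irf8 (1.47), an activator of Il12b transcription; and Nfkb2 (1.12), an NF-kB subunit, with adjusted p of 0.0195 to 0.0292. Without WT GM replicate 1 no gene at all was called for GM against water in WT cells, so these 4 calls depend on that library. All 4 were among the 6 regulators whose GM response was called lower in KO cells than in WT cells (differences -3.58, -2.345, -1.43 and -0.93). Beside them were Irf1 (-1.30) and Rel (-0.88), the NF-kB subunit needed for Il12b expression. Of all genes, 0.926% were called lower in that difference. It uses the same WT GM and WT water libraries as the rises in WT cells, so the overlap is not independent of them. With MDP in WT cells the largest changes were Irf7 (3.42), Irf1 (1.665), Irf8 (1.65), Cebpb (-1.42), Nfkb2 (1.29) and Rel (1.18), and in KO cells Irf7 (0.97), Nfkbiz (0.68), Nfil3 (0.60), Bcl3 (0.58), Jun (-0.56) and Irf4 (0.49). Nfkbiz was higher in KO cells than in WT cells with water, at 38.1 ± 5.26 CPM against 4.48 ± 1.08 CPM (SD, n = 3 each, log2 3.08, adjusted p = 0.00103).

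Of 10 related cytokines 6 were tested, against the same shares of all genes called (7.84% with GM and 19.2% with MDP in KO cells, 0.608% and 8.34% in WT cells). In KO cells edgeR called 0 with GM (1, Il15, had an unadjusted p below 0.05) and 3 rose with MDP, and in WT cells 1 rose with GM and 2 rose and 1 fell with MDP. Il6, which signals through gp130 as IL-27 does, averaged 3.30 ± 0.295 CPM in KO GM, 25.9 ± 4.11 in KO MDP, 3.35 ± 0.367 in KO water, 101.9 ± 41.7 in WT GM, 5.14 ± 1.23 in WT MDP and 0.722 ± 0.198 in WT water (SD, n = 3 each). It rose with MDP in KO cells (2.95, adjusted p = 1.60e-19) and with GM (7.13, adjusted p = 0.00429) and MDP (2.82, adjusted p = 0.00617) in WT cells. The WT GM call was lost without WT GM replicate 1, where no gene was called. The difference of Il6 between the genotypes in GM against MDP was -7.265 (SE 0.46, adjusted p = 7.18e-06).

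**Figure D4:**
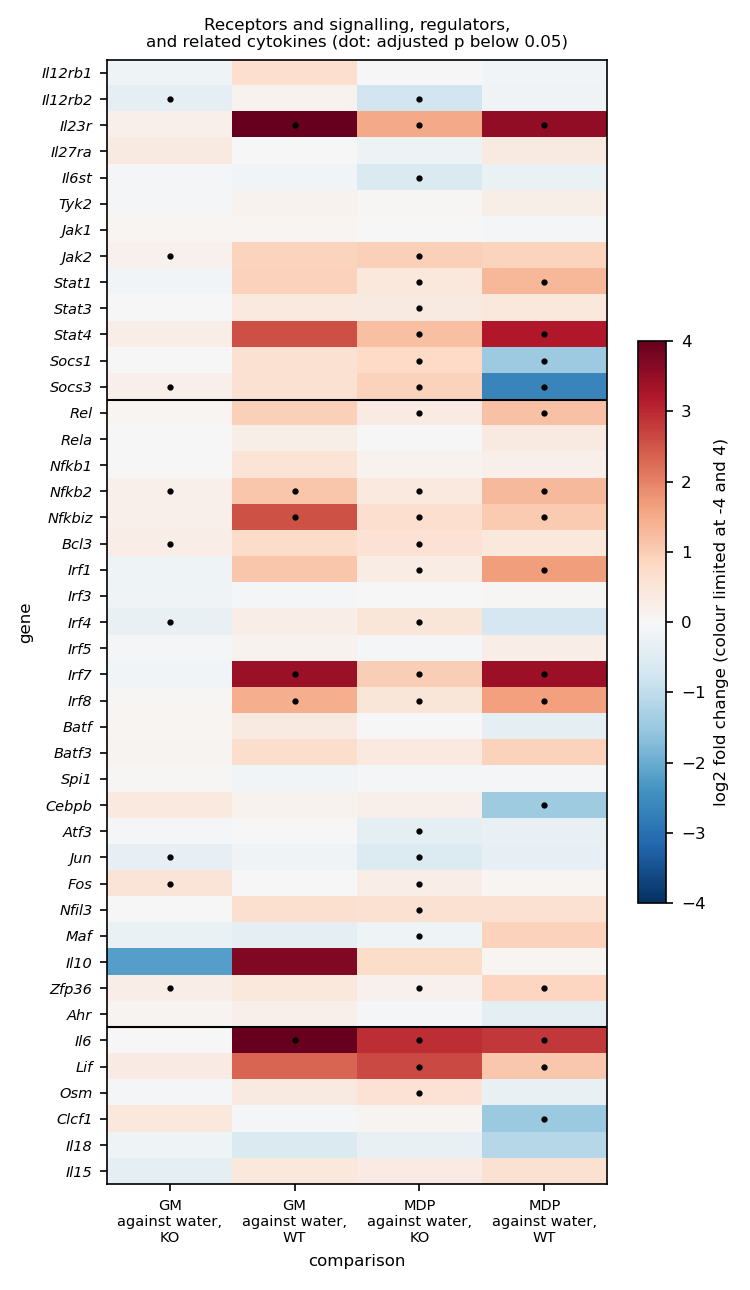
Log2 fold changes (colour, limited at -4 and 4) of the tested receptor and signalling genes (top), regulators (middle) and related cytokines (bottom) for GM and MDP against water in KO and WT cells, with a dot for an adjusted p below 0.05. Il23r and Il6 carry a dot in WT cells with GM and in both genotypes with MDP, and no dot in KO cells with GM.

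The genes whose level followed each member most closely over the 18 libraries are given as a description, by Pearson correlation of log2(CPM + 1) among 13064 genes; the libraries share their groups, so groups rather than single libraries set these values. Il12b was followed most closely by Ccl5 (0.982), a chemokine, then Synpo2 (0.969) and Itgb8 (0.967). Il12a was followed by Saa3 (0.972), an acute-phase protein, Clmp (0.9705) and Sod2 (0.957), the mitochondrial superoxide dismutase. For Il23a the closest were Cxcr5 (0.828), Ddit4 (0.822) and Dnajc1 (0.815), for Il27 Fabp3 (0.856), Gbp6 (0.833) and Cxcl10 (0.802), and for Ebi3 Zc3h12a (0.976), Tnfrsf1b (0.969) and Marco (0.963). Saa3 averaged 340.5 CPM in KO GM, 903 in KO MDP, 324.6 in KO water, 659 in WT GM, 97.0 in WT MDP and 59.0 in WT water, so that WT MDP and WT water, the groups without Il12a counts, were its lowest too. Zc3h12a, an RNase that degrades cytokine mRNAs, averaged 86.4 CPM in KO GM, 96.3 in KO MDP, 75.7 in KO water, 40.3 in WT GM, 18.7 in WT MDP and 21.6 in WT water, with all KO groups above all WT groups as for Ebi3.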

How the data were processed

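RNA of 18 samples (6 groups of 3) was sequenced from directional poly(A)-enriched libraries, per the labels. Reads were aligned with HISAT2 2.0.5 to GRCm39 and counted with featureCounts 1.5.0-p3, per the submitters' processing notes; settings, annotation release and use of strand are not given in the sources used here. The deposited count table holds the authors' raw read counts per gene, and the deposited FPKM table (fragments per gene length and library depth, by the authors) equals CPM per kb times 1 factor per library, so no result rests on it.

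Genes were kept by filterByExpr (minimum count 10), which left 15450 of 56748 genes and at least 99.92% of the counts of each library. TMM factors over all 18 libraries ran from 0.877 to 1.057. Each comparison was fitted on its own 6 or 12 libraries (4 or 8 residual degrees of freedom) with edgeR 4.0.16 in R 4.3.3 (robust quasi-likelihood, 2-sided F test), because the spread differed several-fold between groups, and p-values were adjusted by Benjamini-Hochberg over all kept genes within a comparison; 0.05 was the threshold. In comparisons of KO with WT cells, groups of unlike spread still shared 1 fit, and only the limma-voom alternative gave each group its own spread. The SE is the one implied by the F statistic, and intervals are 95%. A fold against a group at 0 counts is a lower bound against 3 counts over that group, and counting intervals cover counting error only. The fit was also run on simulated counts with 200 changed genes, where all genes of a group had the same spread and no library stood apart. No result given here rests on that run. Alternatives were a fit of all 18 libraries, DESeq2 1.42.0, limma-voom (limma 3.58.1) with a spread for each group, no filter, RLE factors, a replicate block and leaving out each library.

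The members, gene lists, tests and alternatives were chosen with earlier results of these data known, and the 12th comparison (GM against MDP, KO minus WT) after these values were seen. Named genes were all members, every receptor chain, and for each member the 3 genes with the highest correlation among those averaging at least 1 CPM. Of each list at most 6 called genes of a comparison discussed were named, with MDP the regulators of largest change first. Not every called gene of the lists was named. Replicates of a group differed beyond counting noise (chi-square per degree of freedom 3.3 to 142), so none was counted as a duplicate. Promoters came from RefSeq on GRCm38.p6, a build other than that of the counts, and their coordinates were not joined to the count table.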

Additional observations from a re-analysis of the deposited data

Results flagged for a closer look

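For 4 members a difference between KO and WT cells, in the GM response or in the contrast of GM with MDP, passed the edgeR test of the difference itself. Il23a passed only in that contrast, and no member passed for the MDP response. The GM response (GM against water) differed for Il12b (adjusted p = 0.00160), Il12a (adjusted p = 0.00580) and Ebi3 (adjusted p = 0.0346), and in each case it was the lower one in KO cells. With limma-voom none of these GM response differences was called. A lower response was not always a lower level with GM. In KO against WT cells with GM, Il12b was called lower, Il12a was not called (adjusted p = 0.364) and Ebi3 was called higher (adjusted p = 0.00389). With water, Il12a and Ebi3 were both called higher in KO cells (adjusted p = 0.00662 and 0.00273). The contrast of GM with MDP differed for Il12b (adjusted p = 4.29e-05), Il12a (adjusted p = 8.04e-05), Ebi3 (adjusted p = 0.00185) and Il23a (adjusted p = 0.00624); for Il12b and Il12a GM was called below MDP in KO cells and above it in WT cells. This contrast between genotypes was added after the values had been seen.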

How the results depend on the processing

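Over 57 fold changes of the members and 768 alternative values, 680 kept direction and side of the threshold, 52 lost a call, 20 gained one and 16 changed sign; the cause was not tested. The number of members called for GM against water in WT cells, 1 in the report, was 5 in the fit of all 18 libraries, 4 with DESeq2, 2 with limma-voom and 0 to 2 with 1 library left out. For GM against water in KO cells it was 1, and 0 with all 18 libraries and with limma-voom. GM against MDP in KO cells gave 3, and 1 with all 18 libraries. KO against WT with water gave 2, 1 with limma-voom, and 3 (Il12b added) with DESeq2 and with all 18 libraries. The GM response in KO minus WT gave 3, 0 with limma-voom, 2 without the filter and 4 (Il27 added) with DESeq2. Leaving out 1 library gave 0 to 1 members for MDP against water in WT cells, 1 to 4 for GM against MDP in WT cells, 1 to 3 for KO against WT with water and 2 to 4 with GM.

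Same-numbered replicates mostly did not deviate together (6 of 27 correlations over 0.1, from -0.399 to 0.725). In GM against water in WT cells, however, the correlations were -0.399, 0.725 and 0.66 for replicates 1, 2 and 3. Whether the numbers pair the samples is therefore not settled, and the main fits used no pairing. With the replicate block, KO against WT gave 1 member with water and 2 with GM, against 2 and 4 without the block.

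Sign changes touched changes close to 0. Ebi3 in GM against MDP in KO cells (0.0039) was at -0.0045 with DESeq2, -0.014 without the filter and -0.020 to 0.030 with 1 library left out. With 1 library left out, Ebi3 ran from -0.057 to 0.101 for MDP against water in WT cells and from -0.062 to 0.096 for the MDP response in KO minus WT. Il27 ran from -0.19 to 0.23 for MDP against water in KO cells and from -0.37 to 0.077 for KO against WT with MDP.

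Counts over all genes moved more. GM against water in WT cells called 94 genes, 729 with all 18 libraries, 356 with DESeq2 and 0 to 288 with 1 library left out; in KO cells it called 1212 genes, and 3 with all 18 libraries. Over the alternatives the calls ran from 187 to 5479 for MDP against water in WT cells (1288 in the report), 427 to 2963 in KO cells (2963), 209 to 4478 for GM against MDP in WT cells (1544) and 242 to 2533 in KO cells (2532). KO against WT ran from 329 to 7226 with water (2258), 2190 to 6525 with GM (4742) and 4016 to 6797 with MDP (6805). The differences between genotypes ran from 71 to 557 for GM (145), 585 to 4044 for MDP (1232) and 1503 to 4609 for GM against MDP (2331). The deposited FPKM differ from CPM per kb by 1 factor per library, which cancels in a ratio, so they give no separate check of the subunit ratios. Depth limits Il23a, which summed to 1 to 47 counts per group.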
